A study of Mus musculus with 12 samples.

Results

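The genes described here build, remodel and pull on the actin cytoskeleton: 46 symbols chosen by name, for actin itself, the proteins that hold or release its monomers, the Arp2/3 complex, capping and bundling proteins, non-muscle myosin II, adhesion plaque proteins and 4 signalling genes. Of these, 45 have a row among the 25919 gene symbols of the count table, and all 45 entered the test. The symbol Coro1b was not analysed here. The libraries are bulk RNA from the livers of C57BL/6 mice aged 7 weeks, sequenced from the 3' end of poly(A) RNA. The comparison sets 4 libraries labelled CD40 at day 2 (a, b, c and d) against 2 libraries labelled Kupffer cells at day 0 (a and b), the letters following the order of the columns. No genotype, treatment or sort is named in the labels, nor the event from which days are counted, nor whether each library is a separate animal, so the p-values speak only of how much libraries of a group differ, and that spread may be technical. Label and day differ together in this comparison.

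Actin monomers join into filaments at the leading edge of a moving or phagocytosing macrophage or monocyte. Thymosins and profilin keep a pool of monomers ready, the Arp2/3 complex starts branches once a protein of the WASP or WAVE family switches it on, capping proteins stop growth, and cofilin with coronins takes old filaments apart. Talin, vinculin and zyxin tie filaments to integrins, myosin II pulls on them, and the GTPases Rac1, Cdc42 and RhoA direct the whole. Several of these parts exist in a form found mainly in blood-derived cells and a form found in most other cells.

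The libraries held between 688498 and 2271228 counts. Their makeup differed between the groups. A list of 15 endothelial markers took 2% and 2.18% of counts in Kupffer day 0 and 0.0436% to 0.0967% in CD40 day 2, and 11 stellate cell markers took 0.101% and 0.127% against 0.00152% to 0.00365%, with Col1a1 at 0 in CD40 day 2. The list of 11 Kupffer cell markers took 0.551% and 0.58% against 0.0813% to 0.313%. Not every gene on it fell: C1qb was at 1320 ± 116 against 1320 ± 655 CPM and Adgre1 at 95.4 ± 8.83 against 99.6 ± 61.6 CPM (SD). C1qc and Marco were lower in mean but not called, and the other 7 were lower. The list of 10 monocyte markers took 0.167% and 0.192% against 1.78% to 2.39%, with Ly6c2 and Plac8 the largest parts in every library. Not every gene on that list rose: Fn1 was at 21.4 ± 5.14 against 21.2 ± 8.54 CPM and was not called. F13a1 was called higher, but its groups overlapped. Mitochondrially encoded genes took 2.63% and 3.13% against 1.16% to 1.74%. The labelled Kupffer cells thus carried Kupffer markers such as Clec4f (1130 and 1020 CPM) together with endothelial markers such as Clec4g (6220 and 7460 CPM). The lists differ in length and in the level of their genes, so their sums do not rank the cell types. A set of 7 leukocyte genes, chosen after the data had been seen (Ptprc, Cd53, Tyrobp, Fcer1g, Spi1, Cd52 and Cyba), took 0.358% and 0.417% against 1.77% to 2.08% of counts. Not all of these genes are found in every kind of leukocyte. The largest part of their sum came from Fcer1g, Tyrobp, Cd52 and Cyba in every library. In bulk RNA, fewer cells of a type and less RNA per cell cannot be told apart, and the part of these cell types in the results below was not tested.

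Actin cytoskeleton genes took more of the RNA in CD40 day 2. Together the 45 genes held 2.09% and 2.22% of counts in the Kupffer day 0 libraries, and 4.55%, 5.08%, 4.58% and 4.62% in CD40 day 2, so the groups did not overlap. Actb and Tmsb4x alone made up 0.985% and 1.13% of counts against 2.03% to 2.7%, and the other 43 genes 1.09% and 1.11% against 2.34% to 2.56%. Of all 9852 genes tested, 53.4% were called in either direction, and the libraries of the groups did not overlap in 66.6%. By edgeR's quasi-likelihood test (adjusted p under 0.05), 30 of 45 genes were higher in CD40 day 2, which is 66.7% against a background of 23.2% over all genes tested, and 5 were lower (11.1% against 30.2%). Among these 5, Actn1 passed the filter on low counts only through Kupffer day 0, so its call carries no weight. The groups' libraries did not overlap in 35 genes on the higher side (77.8%, where 29.7% of all genes did so) and in 5 on the lower side (11.1%, against 36.9%). The median log2 fold change was 1.19, while that of all genes tested was -0.1.

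**Figure D1:**
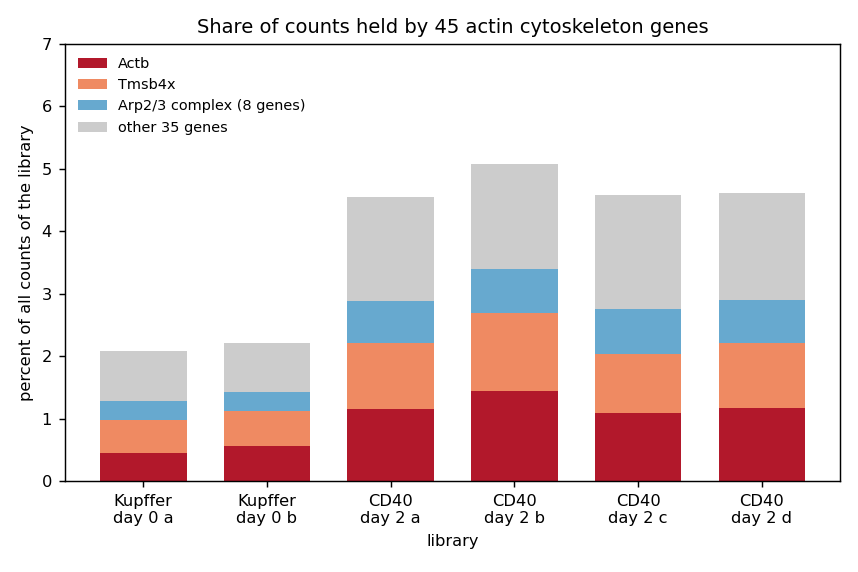
Bars give the percent of each library's counts (vertical axis, from 0) held by Actb, Tmsb4x, the 8 Arp2/3 genes and the other 35 genes, for 2 Kupffer day 0 and 4 CD40 day 2 libraries. The summed share is 2.09% and 2.22% in Kupffer day 0 and 4.55% to 5.08% in CD40 day 2.

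Set against the leukocyte genes in the same library, the picture turned around. The 45 genes held 5.84 and 5.33 counts per count of the 7 leukocyte genes in Kupffer day 0, and 2.33, 2.86, 2.27 and 2.22 in CD40 day 2. The leukocyte genes themselves had log2 fold changes of 1.96 to 3.56, with a median of 2.52. Only 6 of the 45 genes had a fold change above that median: Capg, Tmsb10, Gsn, Lsp1, Coro1a and Lcp1. Per count of the leukocyte genes, the groups overlapped for Coro1a (0.00675 and 0.00905 against 0.00755 to 0.01). Gsn was higher in CD40 day 2 (0.00831 and 0.0101 against 0.0133 to 0.0174), while Arpc1b (0.158 and 0.155 against 0.0975 to 0.112), Cfl1 and Vim were lower, all without overlap. This is a description, with a reference chosen after the values were known.

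**Figure D2:**
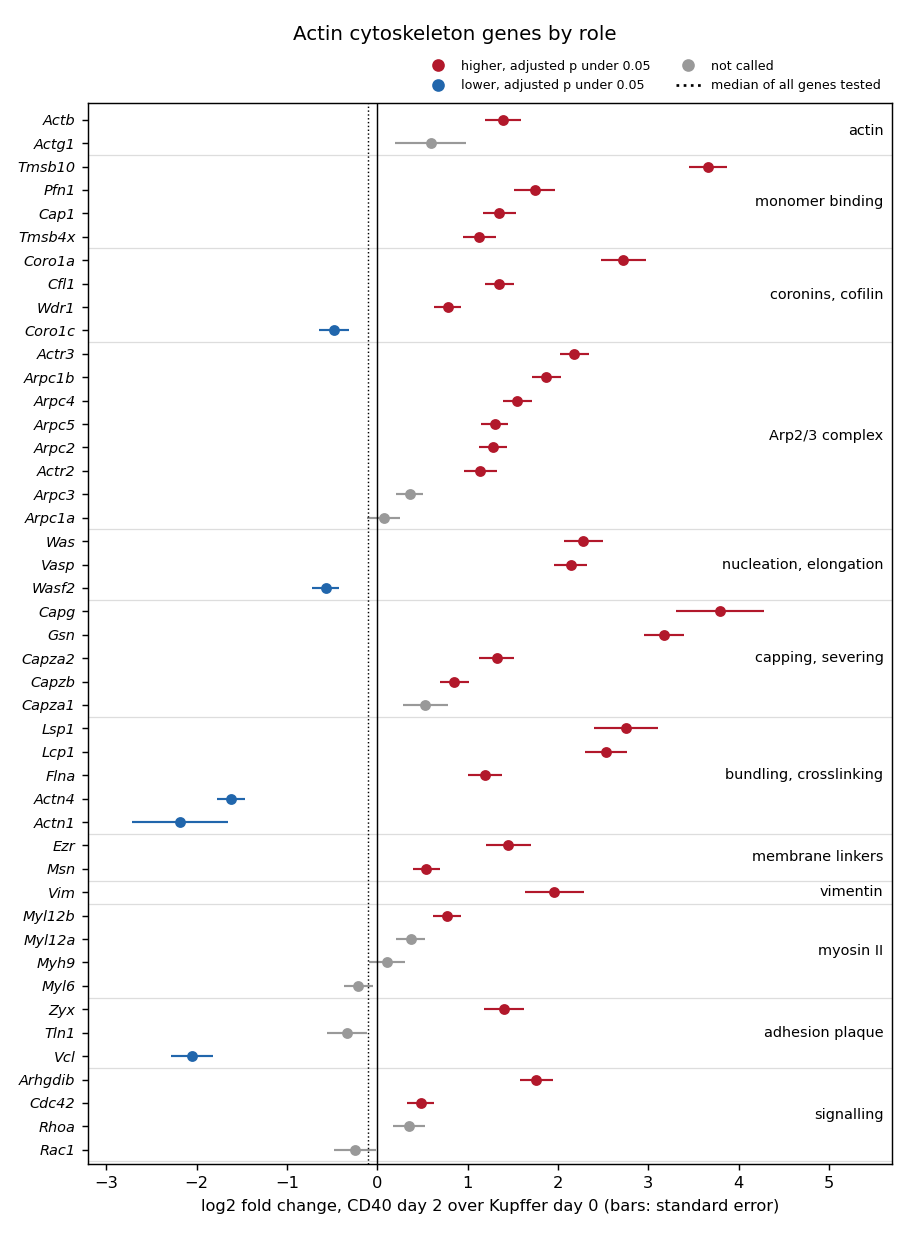
Points are log2 fold changes of 45 genes (horizontal axis, CD40 day 2 over Kupffer day 0, n = 4 and 2), bars are standard errors, and genes are grouped by role. Red genes were higher (30), blue lower (5) and grey not called (10), and the dotted line marks the median of all genes tested (-0.1).

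The 2 cytoplasmic actins were measured at very different levels. Actb, beta-actin, on chromosome 5 from 142903115 to 142906754, was at 4210 and 5490 CPM (the count per fixed library total, after TMM scaling) in Kupffer day 0, and at 12500, 14800, 11200 and 12300 CPM in CD40 day 2. Every CD40 library lay above both Kupffer libraries, with b the highest, and the log2 fold change was 1.39 ± 0.2 (SE, adjusted p = 0.000293). Actg1, gamma-actin, on chromosome 11 from 120345690 to 120348542, had 6.32 and 8.36 CPM against 9.1, 9.9, 10 and 13.1 CPM with a change of 0.59 ± 0.39 that was not called (adjusted p = 0.222). Actb and Actg1 are near-identical in their coding parts and have processed copies in the genome, so reads that match several places make either count uncertain.

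All 4 genes that hold monomers rose. Thymosin beta-4, encoded by Tmsb4x on chromosome X (167207093 to 167209315), sequesters actin monomers, and was at 4900 and 5350 CPM against 11300, 12900, 9730 and 11000 CPM. Its change was 1.13 ± 0.18 (adjusted p = 0.000589). Tmsb10, its relative on chromosome 6 (72957347 to 72958748), moved further, from 199 and 180 CPM to 2580, 2770, 2120 and 2120 CPM. No CD40 library came near the Kupffer range, and the change was 3.66 ± 0.21 (adjusted p = 1.28e-06). Per count of the leukocyte genes, Tmsb10 was at 0.0601 and 0.0449 in Kupffer day 0 and at 0.0964 to 0.152 in CD40 day 2, without overlap, whereas Tmsb4x was at 1.48 and 1.34 against 0.466 to 0.708. Profilin, Pfn1, which loads monomers onto growing ends, was at 37.5 ± 3.8 CPM (SD, n = 2) against 127 ± 21.1 (n = 4), and Cap1, which recharges monomers, at 84.4 ± 0.798 against 214 ± 20.2 CPM.

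Among the proteins that take filaments apart, Cfl1, cofilin, rose from 162 ± 0.732 to 413 ± 28.2 CPM (1.35 ± 0.16, adjusted p = 8.86e-05), and its helper Wdr1 from 177 ± 3.62 to 303 ± 10.2 CPM. The coronins moved apart. Coro1a, the coronin of leukocytes on chromosome 7 (126699773 to 126707787), was at 22.4 and 36.2 CPM against 158, 182, 201 and 194 CPM. Coro1c, which most tissues express, was at 112 and 93.3 CPM against 69.2, 80.6, 75.6 and 70.9 CPM. Coro1a thus stood above Coro1c in each CD40 library and below it in both Kupffer libraries, with changes of 2.72 ± 0.25 (adjusted p = 1.54e-05) and -0.48 ± 0.17 (adjusted p = 0.0385). The fall of Coro1c was small and was lost in 9 of 13 alternative analyses (adjusted p = 0.0127 to 0.308), among them those without Kupffer day 0 a, Kupffer day 0 b or CD40 day 2 a, c or d.

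Of the 8 genes of the Arp2/3 complex, 6 rose and none fell. Actr3, which encodes the Arp3 subunit, was at 115 and 130 CPM against 540, 560, 554 and 545 CPM. The 4 CD40 values differed by little, and the change of 2.18 ± 0.16 (adjusted p = 5.15e-06) was the largest in the complex. Actr2, for the Arp2 subunit, was at 120 and 162 CPM against 293, 297, 332 and 307 CPM (1.14 ± 0.18, adjusted p = 0.000525). Arpc2, Arpc4 and Arpc5 had changes of 1.28 ± 0.15, 1.55 ± 0.16 and 1.3 ± 0.15. Arpc3 and Arpc4 overlap another annotated gene on their own strand, as do Coro1c, Wasf2, Gsn, Actn1, Actn4, Myh9, Rhoa, Capza1 and Actg1, so these counts are less certain.

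The 2 alternative forms of the ARPC1 subunit differed. Arpc1b, the form that predominates in blood cells, on chromosome 5 from 145114215 to 145130705, was at 522 and 620 CPM against 2050, 2030, 2110 and 2150 CPM (1.87 ± 0.16, adjusted p = 1.28e-05). Arpc1a, its neighbour on the same strand (145083830 to 145108761), was at 126 and 104 CPM against 106, 113, 130 and 137 CPM, so its groups overlapped. It did not pass the test (0.07 ± 0.18, adjusted p = 0.762), and its sign changed in 3 of the alternatives, one of them library totals alone (-0.09). Arpc3, at 314 and 283 CPM against 376, 409, 384 and 362 CPM, also missed the threshold (0.36 ± 0.15, adjusted p = 0.0719, range over the alternatives 0.036 to 0.327), although its libraries did not overlap.

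The genes for starting and lengthening filaments did not move as one. Was, on chromosome X (8081453 to 8090498), encodes the Wiskott-Aldrich syndrome protein of blood cells, and was at 17.2 and 22.3 CPM against 90.1, 99, 96.5 and 89.4 CPM (2.28 ± 0.22, adjusted p = 2.04e-05). Vasp, which speeds filament growth, went from 143 ± 9.05 to 630 ± 56.8 CPM (2.14 ± 0.18). Wasf2, the widely expressed WAVE2, fell from 392 ± 8.56 to 263 ± 16.7 CPM (-0.57 ± 0.15, adjusted p = 0.00803). Leaving out Kupffer day 0 a ended that call (adjusted p = 0.0684, where all alternatives gave 0.00217 to 0.0684).

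**Figure D3:**
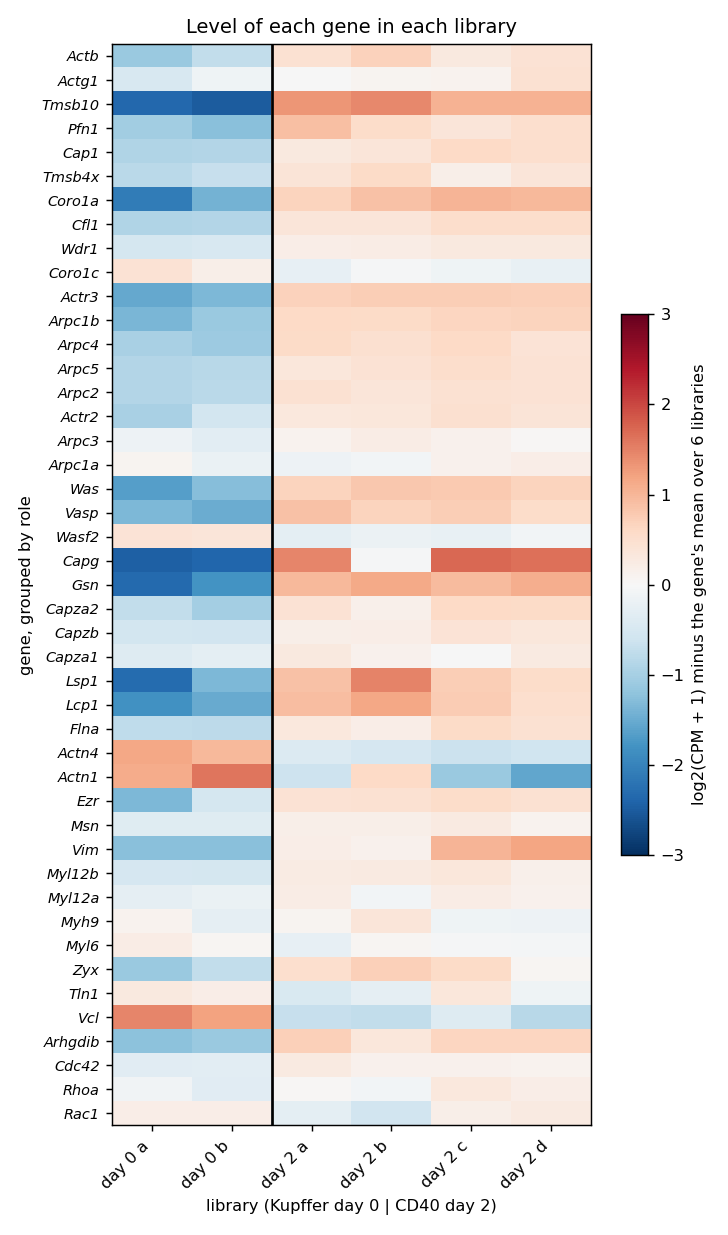
Colours give log2(CPM + 1) of each of 45 genes (rows) in each library (columns) minus the gene's mean over the 6 libraries, red above and blue below. Most rows change colour between the 2 Kupffer day 0 and the 4 CD40 day 2 columns, while Capg, Vim, Lsp1 and Actn1 also vary among the CD40 libraries.

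Of 5 genes for capping and severing filaments, 4 rose. Capg, a capping protein of macrophages on chromosome 6 (72544391 to 72562983), was at 58.6 and 61.3 CPM in Kupffer day 0 and at 900, 317, 1070 and 1020 CPM in CD40 day 2. Library b lay well under the other 3 but still above both Kupffer libraries, and the change was 3.79 ± 0.49 (adjusted p = 0.000142). Per count of the leukocyte genes, library b (0.0174) lay within the Kupffer range (0.0153 to 0.0177), and the other 3 lay above it (0.0429 to 0.0512). Gsn, gelsolin, which cuts filaments and caps the new ends (chromosome 2, 35256380 to 35307892), was at 27.6 and 40.4 CPM against 282, 317, 277 and 306 CPM (3.17 ± 0.22, adjusted p = 3.13e-06). Of the conventional capping protein, Capza2 rose from 292 and 238 CPM to 651, 539, 738 and 717 CPM, and Capzb from 452 ± 1.66 to 815 ± 63.8 CPM. Capza1, at 19.5 and 20.9 CPM against 31.9, 28.3, 25.5 and 31 CPM, did not pass (0.53 ± 0.25, adjusted p = 0.0961).

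Bundling and crosslinking proteins split into a part that rose and a part that fell. Lcp1, the plastin of leukocytes, went from 129 ± 19.8 to 743 ± 139 CPM (2.53 ± 0.23, adjusted p = 1.69e-05). Lsp1, a leukocyte actin-binding protein, was at 82.1 and 159 CPM against 756, 1140, 681 and 600 CPM, with CD40 day 2 b the highest (2.75 ± 0.35). Kupffer day 0 b, the higher Kupffer library for Lsp1, also had a higher sum of neutrophil markers (0.323% of counts, against 0.0977% in a and 0.0934% to 0.179% in CD40 day 2). On that list, S100a8 (466 CPM in a and 1870 in b), S100a9 (131 and 625), Retnlg, Mmp8, Cxcr2 and Csf3r were higher in b. Camp (55.1 and 55.7 CPM), Ltf (19.5 and 19.5) and Ngp (116 and 121) were about level, and Ly6g had few counts. The part of neutrophil RNA in the Lsp1 value was not tested. Flna, filamin A, rose from 51.9 ± 0.507 to 118 ± 14.2 CPM. The alpha-actinins, which hold filaments in parallel arrays, were both at lower levels in CD40 day 2.

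Actn4 was at 228 and 201 CPM against 76.5, 72.1, 65.1 and 67.3 CPM (-1.62 ± 0.16, adjusted p = 2.69e-05). Actn1 was at 20.7 and 29.2 CPM against 5.46, 14.1, 3.64 and 2.38 CPM and was called lower (-2.18 ± 0.53). With 6, 10, 8 and 4 counts in CD40 day 2, Actn1 passed the filter on low counts through Kupffer day 0. Its fall is therefore given as a level with no weight. Library b again stood apart from the other CD40 libraries for Actn1, and the call was lost without Kupffer day 0 b.

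The proteins that fasten filaments to the membrane were higher in CD40 day 2. Msn, moesin, the main linker of leukocytes, was at 341 and 343 CPM against 496, 498, 526 and 470 CPM (0.54 ± 0.15, adjusted p = 0.0114). Ezr, ezrin, was at 28.1 and 50.1 CPM against 98.3, 100, 107 and 101 CPM (1.45 ± 0.25, adjusted p = 0.000784). The call for Msn was lost in 3 of 13 alternatives, with library totals alone and without either Kupffer library (adjusted p = 0.0555, 0.0858 and 0.0735; range over the alternatives 0.00522 to 0.0858). Vim, the intermediate filament protein vimentin, was at 444 and 440 CPM against 1210, 1150, 2130 and 2380 CPM (1.96 ± 0.33, adjusted p = 0.000727). Its CD40 libraries formed 2 levels, a and b below c and d, the latter also those with the most counts.

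Of 4 myosin II genes, 1 passed the test. Myh9, the heavy chain, was at 156 and 121 CPM against 155, 188, 134 and 132 CPM, with overlapping groups (0.11 ± 0.2, adjusted p = 0.666), and its sign changed in 3 of the alternatives, to -0.05 with library totals alone. Myl6, the essential light chain, was at 216 and 194 CPM against 157, 194, 183 and 180 CPM (-0.21 ± 0.16, adjusted p = 0.306). Of the regulatory light chains, Myl12b was at 540 and 529 CPM against 906, 927, 960 and 854 CPM (0.77 ± 0.15, adjusted p = 0.00173). Myl12a was at 794 and 836 CPM against 1120, 908, 1120 and 1060 CPM and missed the threshold (0.37 ± 0.16, adjusted p = 0.073), which it passed with upper quartile scaling (adjusted p = 0.0408) and without CD40 day 2 b (adjusted p = 0.0125, range over the alternatives 0.0125 to 0.287). Myl12a and Myl12b are near-identical copies whose annotated spans overlap on chromosome 17, so their counts are uncertain one by one.

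Of the 3 adhesion plaque genes, 1 fell, 1 rose and 1 was not called. Vcl, vinculin, on chromosome 14 from 20929398 to 21033676, was at 68.3 and 57.1 CPM against 14.6, 14.1, 18.2 and 13.1 CPM (-2.05 ± 0.23, adjusted p = 5.68e-05). Zyx, zyxin, was higher, from 309 ± 54 to 812 ± 148 CPM (1.4 ± 0.22, adjusted p = 0.000512). Tln1, talin, which switches integrins on, was at 327 and 308 CPM against 194, 222, 337 and 243 CPM and did not pass (-0.34 ± 0.22, adjusted p = 0.21). Without CD40 day 2 c, the library above both Kupffer values, Tln1 passed as lower (-0.54, adjusted p = 0.0409, range over the alternatives 0.0409 to 0.481).

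Of the 4 signalling genes, 2 rose. Arhgdib rose from 606 and 663 CPM to 2350, 1820, 2230 and 2220 CPM (1.76 ± 0.18, adjusted p = 2.95e-05). Cdc42 was at 597 ± 7.26 against 832 ± 41.4 CPM (0.48 ± 0.15, adjusted p = 0.0197), a call lost in 5 of 13 alternatives, including those without either Kupffer library (adjusted p = 0.122 and 0.0967, range over the alternatives 0.00811 to 0.122). Rac1, at 304 and 301 CPM against 216, 177, 298 and 317 CPM, did not pass (-0.25 ± 0.23, adjusted p = 0.382). RhoA, encoded by Rhoa, did not pass either, at 120 and 102 CPM against 134, 123, 161 and 149 CPM (0.35 ± 0.18, adjusted p = 0.13), except without CD40 day 2 b (adjusted p = 0.0386, range over the alternatives 0.0386 to 0.455).

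Ratios between related genes within a library do not depend on scaling, and 9 pairs were compared. With 15 ways to split the 6 libraries, the smallest exact permutation p (two-sided) is 0.0667, which becomes 0.075 after Benjamini-Hochberg adjustment over the 9 pairs, so no pair could pass 0.05. In 8 of 9 pairs the groups did not overlap and the exact p was this smallest value. The log2 ratio of Coro1a to Coro1c changed most, from -2.25 and -1.33 in Kupffer day 0 to 1.18, 1.16, 1.39 and 1.43 in CD40 day 2 (difference 3.09). That of Tmsb4x to Tmsb10 fell from 4.61 and 4.89 to between 2.12 and 2.37 (difference -2.52), and that of Arpc1b to Arpc1a went from 2.04 and 2.55 to between 3.95 and 4.26 (difference 1.8). Actr2 and Actr3 were about level in Kupffer day 0 (0.06 and 0.32), whereas Actr2 stood lower in CD40 day 2 (-0.91 to -0.74). The ratio of Actn1 to Actn4 overlapped between the groups (difference -0.33, exact permutation p = 0.667).

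**Figure D4:**
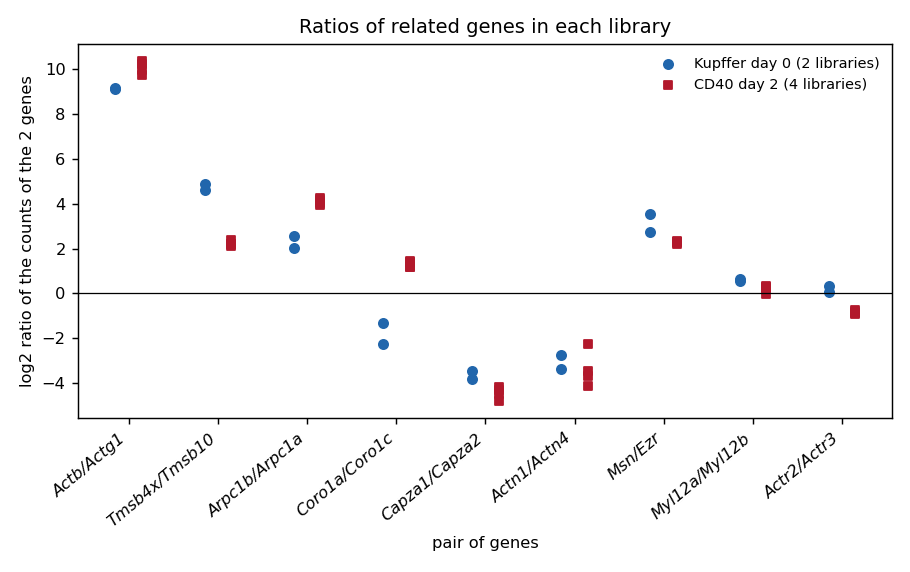
Points are the log2 ratio of the counts of 2 related genes (vertical axis) in each of 2 Kupffer day 0 and 4 CD40 day 2 libraries, for 9 pairs. The groups do not overlap in 8 pairs, with Coro1a over Coro1c changing sign and Actn1 over Actn4 overlapping.

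The other genes of actin and adhesion control, 120 on a separate list, moved both ways. Of 104 tested, 45 were higher and 33 lower (43.3% and 31.7%, against the background of 23.2% and 30.2%), with a median of 0.4. Both counts include genes that passed the filter on low counts only through the group where they are high, such as Cyfip2 and Nckap1. The shares and the median are therefore given as a description with no weight. Among called genes with a mean of at least 20 CPM and no overlap between groups, the 5 largest rises were those of Cyfip2, a WAVE complex subunit (3.4 ± 0.872 against 93.1 ± 17.5 CPM), the coronin Coro2a (6.85 ± 5.74 against 124 ± 37.3 CPM), the myosins Myo1f (log2 fold change 3.3 ± 0.26) and Myo5a (3.52 ± 0.924 against 31.5 ± 18 CPM) and the parvin Parvg (8.97 ± 7.01 against 70.3 ± 24.6 CPM). In Kupffer day 0, Cyfip2 had 7 and 2 counts, Myo5a 5 and 3, Coro2a 19 and 2, and Parvg 7 and 10. Cyfip2, Myo5a, Coro2a and Parvg passed the filter on low counts through CD40 day 2, so their rises are given as levels with no weight. Leaving out Kupffer day 0 a moved the log2 fold change of Coro2a to 5.41 and that of Parvg to 2.31, and leaving out Kupffer day 0 b moved Parvg to 4.09. Myo5a lost its call when Kupffer day 0 a was left out (adjusted p = 0.0799, where all alternatives gave 3.08e-11 to 0.0799). Under the same limits, the 5 largest falls were those of Nckap1, another WAVE complex subunit, the integrin activator Fermt2, focal adhesion kinase Ptk2, caldesmon Cald1 and the GTPase Rhoc.

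Nckap1 had 125 and 45 counts in Kupffer day 0 and 2, 0, 1 and 1 counts in CD40 day 2. Fermt2, kindlin-2, was at 1960 and 1990 CPM against 93.8, 11.3, 32.3 and 20.3 CPM (-5.64 ± 0.55, adjusted p = 2.32e-05). Without CD40 day 2 a, the change was -6.42 for Fermt2 and -3.92 for Rhoc, where Rhoc was at -3.17 with all libraries. Ptk2 was at 63.7 and 76.6 CPM against 3.64, 9.9, 0.455 and 1.19 CPM, and Cald1 at 350 and 359 CPM against 18.2, 12.7, 15 and 8.94 CPM. Nckap1, Ptk2 and Parva were near 0 in CD40 day 2 and passed the filter through Kupffer day 0, so their values are given as levels with no weight. The blood cell relatives of these genes were higher in CD40 day 2. Nckap1l rose from 19.1 ± 8.39 to 73.2 ± 9.88 CPM, Fermt3, kindlin-3, from 47.3 ± 7.81 to 248 ± 36.6, Ptk2b from 18.2 ± 9.98 to 129 ± 19.5, and Parvg from 8.97 ± 7.01 to 70.3 ± 24.6, where Parva was at 53.7 ± 1.15 against 2.49 ± 1.71 CPM. Parvg passed the filter on low counts through CD40 day 2, so its rise, too, is given with no weight. Nckap1l, Fermt3 and Parvg stand on the list of blood cell genes below, while Ptk2b, Parva and this pairing were chosen after the values were seen.

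Actin regulators known mainly from blood cells formed a list of 17 genes, 5 of them among the 45, drawn up with earlier results of these data known. All 17 were tested and higher, where 23.2% of all genes tested were, with log2 fold changes of 1.76 to 3.3 and a median of 2.53, among them Rac2, the Rac of blood cells (195 ± 54.6 against 978 ± 65.6 CPM), Hcls1, a relative of cortactin (62.9 ± 3.66 against 415 ± 31.2), Vav1 (78.9 ± 2.72 against 567 ± 69.1) and the integrin chain Itgb2 (71.2 ± 19.5 against 636 ± 64.5). Fmnl1, with 8 and 5 counts in Kupffer day 0, and Parvg, with 7 and 10, passed the filter on low counts through CD40 day 2. Their rises carry no weight in that comparison with all genes. Their summed counts per count of the 7 leukocyte genes were 0.428 and 0.429 in Kupffer day 0 and 0.38, 0.428, 0.376 and 0.341 in CD40 day 2, so that measured against those genes the list was not higher in CD40 day 2. Without the 5 shared genes, 25 of the other 40 were higher (62.5%, against 23.2% of all genes) and 5 lower (12.5%, against 30.2%), with a median of 0.99. Of 18 genes of smooth muscle and stromal contractility, 10 passed the filter on low counts, and since a gene at near 0 in CD40 day 2 passes only through Kupffer day 0, their falls (median -3.22) are given with no weight. Summed, these 18 took 0.341% and 0.344% of counts against 0.0239% to 0.0539%. The largest part of that sum came from Fermt2 in Kupffer day 0 (1960 and 1990 CPM) and from Cnn3 in CD40 day 2 (151 to 362 CPM). The sum therefore does not describe smooth muscle genes. Acta2, smooth muscle actin, was at 3.36 ± 3.13 against 7.19 ± 4.37 CPM, too low to be tested. Tagln, Myl9, Tpm2, Cnn1, Myh11, Flnc and Enah were also low in both groups and not tested.

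**Figure D5:**
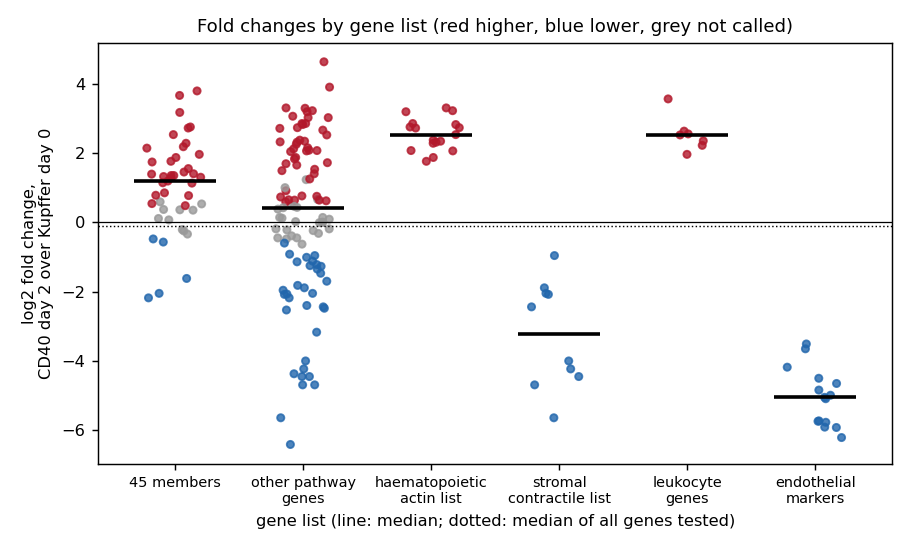
Points are log2 fold changes of single genes (vertical axis, CD40 day 2 over Kupffer day 0) in 6 gene lists, the thick lines list medians, and colour the call. The medians are 1.19 for the 45 genes, 0.4 for the other pathway genes, 2.53 for blood cell actin regulators, 2.52 for leukocyte genes, -3.22 for stromal contractile genes and -5.05 for endothelial markers.

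Serum response factor binds the CArG box and drives many actin genes, so that motif was looked for, on both strands, in the RefSeq promoter windows (GRCm38.p6, 250 bases before to 50 after each start) of the 42 genes that matched. It lay in 4 of their 52 windows (7.69%), against 1.29% of 14436 windows of all genes in the table. The 4 genes went different ways: Vcl fell, Arpc4 rose, and Actg1 and Myl6 were not called. Actb, Coro1b, Lsp1 and Rac1 had no promoter window, so nothing is known here of motifs in theirs. The stretches of Vcl and Actg1 are shown because they carry the motif, in capitals, each 60 bases long, 5′ to 3′ on the gene's strand and before the start.
Vcl (chr14:20929148-20929207, + strand): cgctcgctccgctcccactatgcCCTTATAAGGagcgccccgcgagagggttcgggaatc
Actg1 (chr11:120348551-120348610, - strand): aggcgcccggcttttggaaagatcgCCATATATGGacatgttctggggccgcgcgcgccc

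The motif ended 217, 240, 80 and 40 bases before the start in Vcl, Arpc4, Actg1 and Myl6. Srf, which encodes the factor, was at 21.8 and 20.9 CPM against 12.7, 15.6, 12.3 and 15.5 CPM, a change that was not called (-0.63 ± 0.28, adjusted p = 0.084). The letters GAGGAAGT, a core that PU.1 can bind, read on both strands, lay in 1 of the 52 windows (Arpc1b), against 3.14% of all windows. A match describes these letters only.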

How the data were processed

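The authors deposited 1 table of raw counts, whole numbers per gene symbol, with 12 columns in 4 groups. The submitters' processing notes name GRCm38.p6 and DESeq2 1.22.2. For the aligner, the counter and whether molecular identifiers were counted: not given in the sources used here. Column names repeat within a group and carry no replicate number. The columns of Kupffer day 7 and of the CD40-negative group were left out of every per-gene step, because the first column of each falls down the table with 1 step up while the row order is that of Kupffer day 0 a.

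The 6 libraries of the 2 groups were fitted with edgeR 4.0.16 in R 4.3.3 (quasi-likelihood test, TMM, filterByExpr defaults, two-sided, Benjamini-Hochberg over 9852 genes, threshold 0.05). CPM use TMM-adjusted totals, and 1 count equals 0.455 to 1.41 CPM. The standard error is the log2 fold change over the square root of F. Ratios added a prior count of 2, scaled to each library's total. Libraries of a group all differed by more than counting noise (chi-square over its degrees of freedom, 3.17 to 11.7). Gene positions are from GENCODE M21 (GRCm38). Members and lists were chosen with earlier results of these data known. All 45 genes could be named; other pathway genes were named by the 5 largest rises and falls among called genes with no overlap between groups and a mean of at least 20 CPM. Alternatives were other scalings, filters, DESeq2 1.42.0 and leaving out each library.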

Additional observations from a re-analysis of the deposited data

Results flagged for a closer look

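In groups of 4 CD40 day 2 libraries, 3 of 65 sets of values held a library far from the other 3, where chance alone gives about 1 in 20. Arpc2 was lowest in CD40 day 2 b, at 2460 CPM, with the others at 2590 to 2600 CPM, a gap of few percent that stands out because the other 3 nearly coincide. The summed share of the 45 actin cytoskeleton genes was highest in CD40 day 2 b, at 5.08% of counts against 4.55% to 4.62%. Rhoc was highest in CD40 day 2 a, at 89.2 CPM against 19.7 to 25.5 CPM in the other 3. That library also had the highest endothelial marker share of the 4 (0.0967%, against 0.0436% to 0.0588%) and the highest Fermt2 (93.8 CPM, against 11.3 to 32.3 CPM); the part of endothelial RNA in the Rhoc value was not tested.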

How the results depend on the processing

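Across 13 alternatives, 30 of the 35 called genes among the 45 kept their direction and stayed past the threshold wherever they were tested, and 5 were lost in at least 1 (Coro1c, Cdc42, Msn, Wasf2 and Actn1); 4 of the 10 uncalled genes passed in at least 1 (Arpc3, Myl12a, Rhoa and Tln1). The number of these genes that were higher was 28 to 33 over all alternatives. Leaving out 1 library at a time gave 28 to 33 higher and 3 to 5 lower, 3 without either Kupffer library; 35 to 49 pathway genes higher and 24 to 33 lower; 3206 (without Kupffer day 0 a) to 5514 genes called in all; a median of 1.06 to 1.32 for the 45 genes and 0.28 to 0.47 for the pathway list. The median of the 45 was 1.27 with upper quartile scaling, 1.02 with library totals and 1.11 with at least 10 counts in 4 libraries, and that of the pathway list 0.48, 0.23 and, with no filter, 0.14. Library totals alone moved the median of all genes from -0.1 to -0.27. Arpc1a changed sign with library totals (-0.09), at least 10 counts in 4 libraries (-0.06) and without Kupffer day 0 b (-0.04), as did Myh9 (-0.05, -0.01 and -0.04); without 1 library Arpc1a ranged up to 0.22 and Myh9 up to 0.32, and neither was called in any. Without mitochondrial and ribosomal protein genes in the total, the summed share was 2.26% in Kupffer day 0, where it was 2.16% with them. The cause of these shifts was not tested. Without 1 library at a time, the difference in the ratio of related genes did not change sign in any of the 9 pairs, but that of Actn1 over Actn4 came near 0 (-0.72 to 0). No paired analysis was possible because the columns carry no replicate numbers. Without a Kupffer library, the lone one left is assumed to vary like the others. DESeq2 called 30 of the 45 higher and 4 lower.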

Other observations

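Cofilin is held inactive by LIM kinases and released by slingshot phosphatases. The genes of both were lower in CD40 day 2 while Cfl1 was higher, a pattern chosen after the values were seen. Limk1 was at 21.3 ± 6.45 CPM (SD, n = 2) in Kupffer day 0 against 9.55 ± 2.13 (n = 4) in CD40 day 2 (log2 fold change -1.22 ± 0.33 SE, adjusted p = 0.0112), and Limk2 at 29.1 ± 11.6 against 11.5 ± 3.81 CPM (-1.47 ± 0.36, adjusted p = 0.00688). Ssh1 was at 36.4 ± 3.62 against 15.7 ± 4.83 CPM (-1.27 ± 0.29, adjusted p = 0.00485), and Ssh2 at 93.1 ± 5.58 against 20.7 ± 2.43 CPM (-2.18 ± 0.19, adjusted p = 1.29e-05). Cfl1 was at 162 ± 0.732 against 413 ± 28.2 CPM.

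Integrin chains moved in both directions. Itgb2, the chain of leukocyte integrins, and its partners Itgam and Itgal were higher (3.19 ± 0.23, 3.06 ± 0.4 and 1.25 ± 0.29), as was Itga4 (2.15 ± 0.23), whereas Itgb1, the chain shared by most cell types, was lower (232 ± 20.5 against 122 ± 19.6 CPM, -0.92 ± 0.18, adjusted p = 0.00202).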
